A study of Mus musculus with 12 samples.

Results

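Tumours grown from control 4T1 cells, a mouse mammary carcinoma line, were compared after checkpoint antibodies (CTRL-ICB) and after isotype antibodies (CTRL-IgG). The comparison rests on 6 of the 12 deposited libraries, chosen by genotype and treatment labels alone, with 3 tumours in each group. Mice of the CTRL-ICB group received 200 ug of an antibody against PD-1 together with 100 ug of an antibody against CTLA-4, 3 times a week over 1 week, and CTRL-IgG mice received the matched isotype antibodies. The other 6 libraries came from 4T1 tumours labelled TREX1 KO, in which an exonuclease of cytosolic DNA was targeted with CRISPR-Cas9, and they enter here through the shared estimate of spread and a closing comparison. The sources used here do not give how the CTRL cells were made, whether they are 1 clone, or the strain, age and sex of the hosts. Polyadenylated RNA of whole tumours was sequenced, so each library mixes carcinoma cells with the immune and stromal cells of the host. Values are TPM, the share of a library that a gene's transcripts hold after correction for their length. Every library sums to the same total, so sequencing depth is unknown and no counting interval is given.

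PD-1 is an inhibitory receptor that activated T cells display, and its ligands PD-L1 and PD-L2 sit on tumour and myeloid cells. CTLA-4 is carried by regulatory and activated T cells and competes with the costimulatory receptor CD28 for CD80 and CD86. Antibodies that block both receptors release T cell activity, and in tumours that respond the transcripts of T cells, cytotoxic granules, interferon gamma targets and antigen presentation are usually the ones followed. The 4T1 model grows fast, spreads to distant organs and recruits many myeloid cells, and it is known as a model that responds poorly to checkpoint antibodies.

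Tissue labels were checked against defining genes first. The simple epithelial keratins of the carcinoma were abundant in all 6 libraries, with Krt8 between 728 and 1086 TPM and Krt18 between 962 and 1435 TPM. Epcam, an epithelial adhesion molecule, was lowest in CTRL-IgG replicate 2, at 87.1 TPM, while the remaining 5 tumours had 602 to 1113 TPM. Skin transcripts were present in CTRL-IgG replicate 3 and CTRL-ICB replicate 3, where a list of skin keratinocyte genes took 0.673% and 1.33% of all TPM, against 0.0165% to 0.0505% in the other 4 libraries. The basal keratin Krt5 was 328 and 770.1 TPM in those libraries but at most 17.2 TPM elsewhere. Since 1 such library lies in each group, results that rest on them are also given without both. Mitochondrially encoded genes took 2.59% to 4.74% of TPM, and 12772 to 13514 symbols reached 1 TPM. The Trex1 transcript does not check the KO label, since it was 32.8 to 46.2 TPM in CTRL and 56.0 to 72.2 TPM in TREX1 KO libraries.

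No gene passed the test of CTRL-ICB against CTRL-IgG. Of the 23667 symbols in the table, 13886 reached 1 TPM in at least 3 of the 12 libraries and were tested on log2(TPM + 1), a scale that understates changes of low genes. In limma, 0 of them (0%) had a Benjamini-Hochberg adjusted p under 0.05, and the smallest adjusted p was 1. At an unadjusted p under 0.05 there were 176 genes (1.27%), 70 with a higher mean (0.504%) and 106 with a lower mean (0.763%) in CTRL-ICB, and the smallest unadjusted p was 0.000683. That threshold would take a share of about 0.05 of the genes if none differed, so 1.27% is no excess. That count of 176 became 368 without CTRL-IgG replicate 1, 284 without KO-IgG replicate 1, 286 without the averaged KO-IgG pair and 313 without the libraries with skin transcripts, and no gene passed the adjusted threshold in any of these fits. Without overlap between the groups, 207 genes (1.49%) had every CTRL-ICB library above every CTRL-IgG library and 487 (3.51%) had every one below.

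The log2 fold changes, CTRL-ICB minus CTRL-IgG, centred near 0, with a median of -0.01. They were positive for 6574 genes (47.3%) and negative for 7298 (52.6%). From the 5th to the 95th percentile they ran from -0.45 to 0.45, and from the 1st to the 99th from -0.81 to 0.91. An estimate above 1 or below -1 was found for 178 genes, 112 positive and 66 negative, and in 45 of those the groups did not overlap.

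What stayed within a stated range can be read from the 95% intervals. For 9427 genes (67.9%) the interval of the log2 fold change lay wholly inside -1 to 1. On log2(TPM + 1), 1 unit is a 2-fold difference of an abundant gene, but a 2-fold difference in TPM of a low gene is less than 1 unit. The share depended on the level of the gene. Among 3456 genes with a mean under 5 TPM it was 45.6%, among 4333 genes from 5 to 20 TPM 65.2%, among 4727 genes from 20 to 100 TPM 82.1%, and among 1370 genes at 100 TPM or more 83.5%. The median half-width of the interval was 0.67 over all genes, 0.81 in the lowest class and 0.51 in the highest. Taken singly, the upper end of the interval was below 1 for 80.2% of genes and the lower end above -1 for 80.2%. Set instead against the values that a 2-fold rise or fall in TPM from the CTRL-IgG mean would give, both were outside the interval for 7466 genes (53.8%). Under 5 TPM this held for 234 of 3456 genes (6.77%), from 5 to 20 TPM for 53.2%, from 20 to 100 TPM for 80.1% and at 100 TPM or more for 83.4%. These intervals are not adjusted for the number of genes. Without the 2 libraries with skin transcripts, which leaves 2 tumours in each group, only 5645 genes (40.7%) had an interval inside that range, and the median over all genes moved to -0.13, with 34.7% positive.

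**Figure D1:**
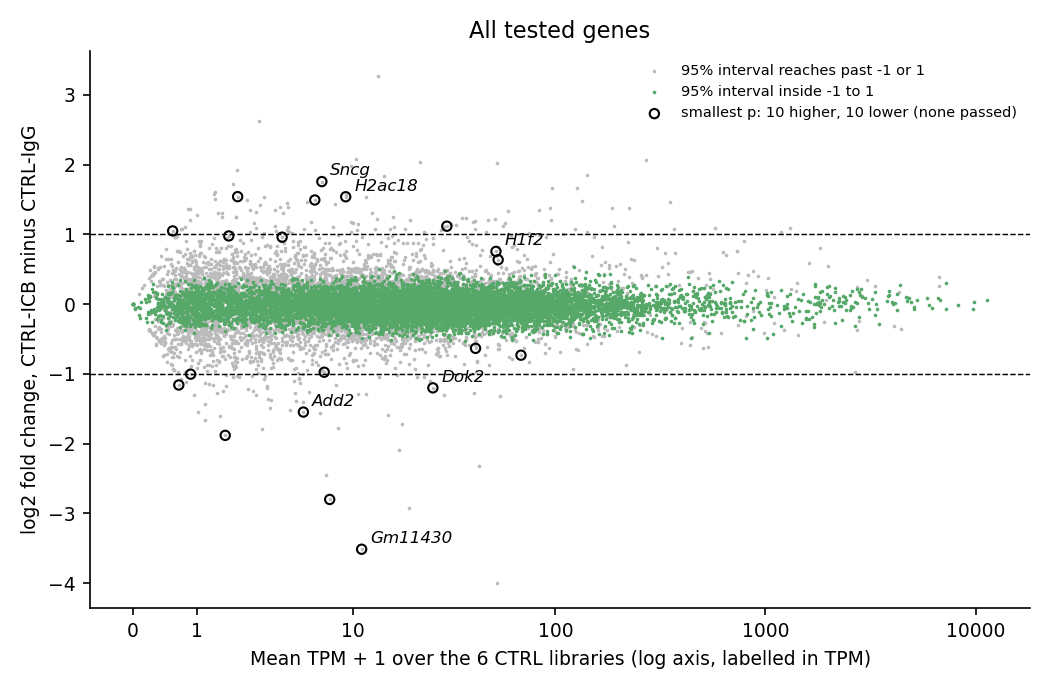
Log2 fold change (CTRL-ICB minus CTRL-IgG, vertical axis) against the mean TPM of the 6 CTRL libraries (log axis) for the 13886 tested genes. Green points are the 9427 genes whose 95% interval lies inside -1 to 1, dashed lines mark those bounds, and circles mark the 20 genes with the smallest p, none of which passed the test.

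The libraries did not sort by treatment. The robust SD of the log2 difference between 2 libraries over the tested genes was 0.403 to 0.659 for the 6 pairs of tumours under the same treatment, with a median of 0.506. For the 9 pairs of 1 CTRL-ICB and 1 CTRL-IgG tumour it was 0.378 to 0.614, with a median of 0.419. For 5 of the 6 libraries the closest library belonged to the other treatment. The closest pair of all was CTRL-IgG replicate 3 and CTRL-ICB replicate 1, at 0.378, followed by CTRL-IgG replicate 2 and CTRL-ICB replicate 2, at 0.402. Only CTRL-ICB replicate 3 had its closest library, CTRL-ICB replicate 2, in its own group.

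**Figure D2:**
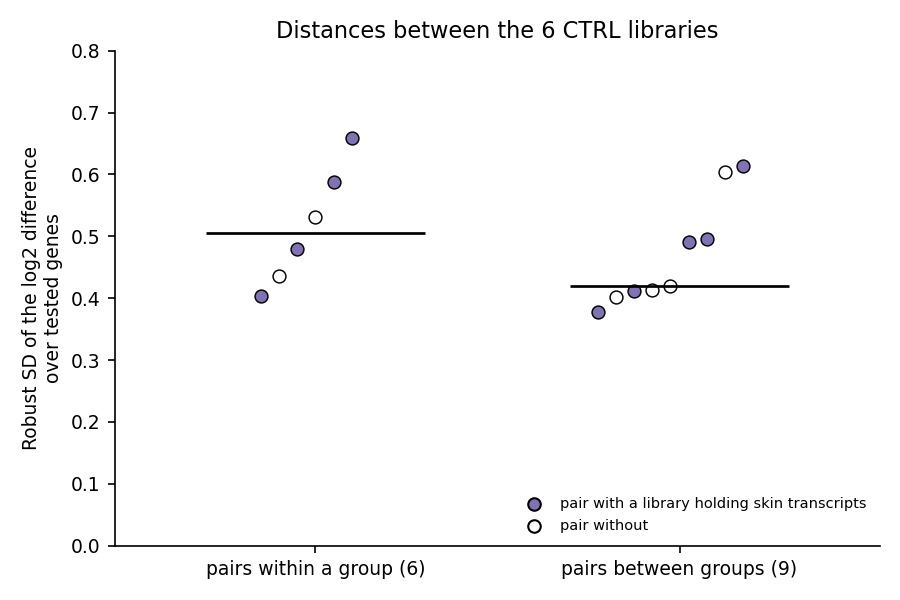
Robust SD of the log2 difference over the tested genes (vertical axis) for each pair of CTRL libraries, 6 pairs of the same treatment and 9 pairs across treatments, with the median of each kind as a line. Filled points are pairs that include a library with skin transcripts, and the range of the pairs between groups (0.378 to 0.614) overlaps that of the pairs within groups (0.403 to 0.659).

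The genes with the smallest unadjusted p are described next, 10 in each direction, and each had an adjusted p of 1 in limma. In none of the 20 did the groups overlap, which the order by p favours. The first by p was H1f2, a replication-dependent linker histone H1 (GRCm38, chr13:23738807-23739531, protein coding). Its level was 35.8, 37.3 and 41.7 TPM in CTRL-IgG and 66.7, 65.4 and 63.5 TPM in CTRL-ICB, a log2 fold change of 0.76 (95% interval 0.41 to 1.10). The 3 values of each group lay close together, and every CTRL-ICB tumour was above every CTRL-IgG tumour. H2ac18, a core histone H2A gene in another cluster (chr3:96245497-96246052), had 2.29, 4.26 and 6.74 TPM against 11.5, 14.7 and 15.8 TPM, a difference of 1.54 (95% interval 0.81 to 2.27). In contrast H3c13, a histone H3 gene (chr3:96268654-96269155), was lower in mean after the checkpoint antibodies, at 11.5, 11.2 and 6.64 TPM against 4.34, 5.03 and 3.75 TPM, with a difference of -0.98 (95% interval -1.59 to -0.36). Histone genes of this kind occur in many near-identical copies whose reads cannot be assigned with certainty, and most of their transcripts lack the poly(A) tail by which these libraries were selected.

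Over the whole family, 36 of 54 replication-dependent histone genes were tested, 9 with a positive and 27 with a negative difference and a median of -0.24. The range ran from -1.37 to 1.54. In 3 of them (H1f2, H2ac18 and H2ac7) every CTRL-ICB tumour was above every CTRL-IgG tumour, and in 5 (H2ac10, H2ac11, H3c10, H3c13 and H3c8) every one was below, against 1.49% and 3.51% over all genes. The members thus differed in opposite directions, and their summed level was 214 to 253 TPM in CTRL-IgG and 221 to 254 TPM in CTRL-ICB, with overlapping groups.

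Among the other genes higher in mean after the checkpoint antibodies, Ntn1 (chr11:68209364-68386826) encodes netrin-1, a secreted guidance cue. It had 40.7, 43.9 and 38.5 TPM in CTRL-IgG and 53.3, 75.8 and 65.7 TPM in CTRL-ICB, a log2 fold change of 0.64 (95% interval 0.22 to 1.05). Phospho1, a phosphatase known from skeletal mineralization, had 17.1, 27.7 and 11.6 TPM against 51.99, 42.5 and 28.03 TPM, a difference of 1.12 (95% interval 0.38 to 1.86). The highest CTRL-IgG value of Phospho1 came just under the lowest CTRL-ICB value, so the groups were separate by a narrow margin. Sncg, gamma-synuclein, was low in all CTRL-IgG tumours (1.43, 2.496 and 3.02 TPM) and spread widely in CTRL-ICB (10.2, 4.804 and 19.2 TPM), with a difference of 1.76 (95% interval 0.53 to 2.98). Cysltr2, a receptor for cysteinyl leukotrienes, had 3.05, 2.39 and 1.94 TPM against 4.85, 5.31 and 7.03 TPM and a difference of 0.96 (95% interval 0.29 to 1.63).

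The rest of the upper 10 were low. Osbp2, a member of the oxysterol-binding protein family, had 0.6002, 1.23 and 0.9099 TPM against 3.23, 3.05 and 2.04 TPM. Nme5, a member of the nucleoside diphosphate kinase family, had 0.473, 0.121 and 1.14 TPM against 2.53, 2.52 and 6.01 TPM. All 6 values of each gene were at most 6.01 TPM. The last pair is annotated as pseudogenes in GENCODE M21. Gm10157 had 1.52, 1.19 and 6.99 TPM against 7.35, 13.5 and 7.17 TPM, and Gm5401 was listed at 0 in all CTRL-IgG libraries and had 1.34, 1.07 and 0.833 TPM in CTRL-ICB.

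Among genes lower in mean after the checkpoint antibodies, Dok2 (chr14:70765889-70778494) encodes an adaptor of tyrosine kinase signalling in blood cells. Its level was 41.2, 44.7 and 22.5 TPM in CTRL-IgG and 16.8, 16.5 and 11.04 TPM in CTRL-ICB, a log2 fold change of -1.20 (95% interval -1.85 to -0.55). The lowest CTRL-IgG value, in replicate 3, was nearer to the CTRL-ICB values than to the other CTRL-IgG tumours. Add2, beta-adducin of the membrane skeleton, had 13.3, 9.09 and 3.84 TPM against 2.11, 1.32 and 2.88 TPM, a difference of -1.55 (95% interval -2.48 to -0.61). Nxf1, the main export receptor for mRNA, had 79.6, 102 and 75.1 TPM against 49.4, 45.6 and 57.8 TPM and -0.73 (95% interval -1.17 to -0.30). Ncbp2, the small subunit of the nuclear cap-binding complex, had 51.2, 49.8 and 49.5 TPM against 37.8, 28.5 and 30.3 TPM and -0.63 (95% interval -1.03 to -0.24). Nxf1 and Ncbp2 thus had well separated groups at moderate levels and estimated differences of less than 2-fold.

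The remaining 5 of the lower 10 are transcripts without a described role. Gm11430, an lncRNA in RefSeq and a pseudogene in GENCODE, had 3.57, 4.44 and 58.9 TPM in CTRL-IgG and was listed at 0 in all CTRL-ICB libraries. Gm7240 (1.698, 0.587 and 1.6 TPM in CTRL-IgG) and MF597746.1 (7.46, 1.96 and 0.997 TPM in CTRL-IgG) were listed at 0 in all CTRL-ICB libraries as well. Gm49195 had 20.3, 8.62 and 10.5 TPM against 5.99, 0 and 0 TPM, and Gm47191 had 2.28, 1.12 and 1.14 TPM against 0, 0.377 and 0.339 TPM. No fold is given for the 3 genes listed at 0, because a listed 0 in a table without counts can be a failed estimate.

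**Figure D3:**
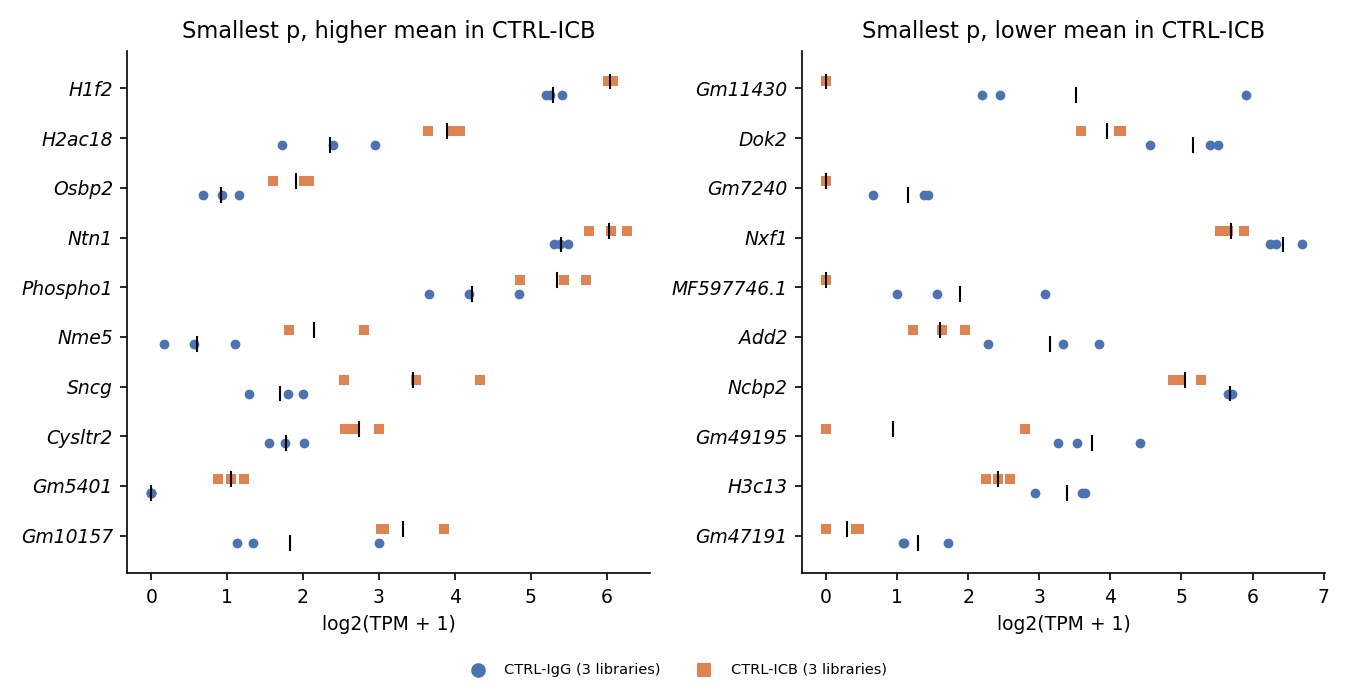
Level of the 20 genes with the smallest p as log2(TPM + 1) in each CTRL library (horizontal axis), 10 with a higher and 10 with a lower mean in CTRL-ICB. Circles are CTRL-IgG, squares CTRL-ICB and short bars group means, and no gene has overlapping groups although none passed the test.

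Turning to the molecules that the antibodies address, transcripts of both targets were low and did not differ beyond their spread. In bulk tumour RNA, fewer cells of a type and less RNA per cell cannot be told apart. Pdcd1, which encodes PD-1, had 4.66, 4.95 and 3.597 TPM in CTRL-IgG and 4.68, 7.95 and 3.01 TPM in CTRL-ICB, a log2 fold change of 0.13 (95% interval -0.74 to 1.00). Ctla4 had 1.03, 1.47 and 0.573 TPM against 0.534, 1.19 and 0.952 TPM and a difference of -0.09 (95% interval -0.80 to 0.62). The groups overlapped for both, and at these low levels a 2-fold rise in TPM lay inside both intervals and a 2-fold fall inside that of Ctla4. Of the ligands of PD-1, Cd274, encoding PD-L1, had 27.4, 27.1 and 8.53 TPM against 16.4, 33.9 and 27.9 TPM and a difference of 0.40 (95% interval -0.58 to 1.39). Its lowest value was in CTRL-IgG replicate 3, 1 of the libraries with skin transcripts, and without both of those libraries the difference turned to -0.19. Pdcd1lg2, encoding PD-L2, had 2.12, 14.7 and 2.87 TPM against 5.39, 6.26 and 3.44 TPM, with 1 high CTRL-IgG tumour and a difference of 0.04 (95% interval -1.19 to 1.27).

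The CTLA-4 ligands overlapped too. Cd86 had 11.5, 11.7 and 8.94 TPM against 13.03, 9.39 and 7.03 TPM, a difference of -0.14 (95% interval -0.87 to 0.59), and Cd80 had 2.59, 4.22 and 1.36 TPM against 3.19, 1.52 and 2.31 TPM, a difference of -0.11 (95% interval -1.05 to 0.83). Cd28, the costimulatory receptor, lay between 0.10 and 0.67 TPM and was not tested. Of the list of checkpoint targets and partners, 8 of 9 genes were tested, 0 were called, 3 were positive and 5 negative, and the median was -0.10. Of 12 further checkpoint and exhaustion genes 10 were tested, 3 positive and 7 negative, with a median of -0.06 and 8 intervals inside -1 to 1. Among those, Tigit, an inhibitory receptor of T and NK cells, had 19.7, 47.6 and 16.5 TPM against 18.7, 44.6 and 34.8 TPM, a difference of 0.29 (95% interval -0.63 to 1.21), and Lag3 had 4.26, 4.53 and 4.18 TPM against 3.42, 4.96 and 2.298 TPM, a difference of -0.27 (95% interval -0.99 to 0.46). These shares of signs lie beside 47.3% positive over all tested genes and a median of -0.01. Without the libraries with skin transcripts the first list had 2 positive and 6 negative members and a median of -0.13. The second had 1 positive and 9 negative members and a median of -0.21. Over all tested genes 34.7% were then positive, with a median of -0.13.

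T cell transcripts were detected at low levels in every tumour and overlapped between the groups. Of 21 genes of the T cell receptor complex and T cell identity 20 were tested, 10 positive and 10 negative, with a median of 0.03. The interval was inside -1 to 1 for 14 of the 20, against 67.9% of all genes, and a 2-fold difference in TPM in either direction was outside it for 2, against 53.8%. Without the libraries with skin transcripts the list had 14 positive and 6 negative members and a median of 0.15. Cd8a, the coreceptor of cytotoxic T cells, had 6.91, 5.37 and 4.51 TPM against 5.05, 9.15 and 3.49 TPM, a difference of -0.00 (95% interval -0.90 to 0.90). Cd4, the coreceptor of helper T cells, had 1.94, 1.801 and 1. TPM against 1.08, 1.23 and 1.95 TPM, a difference of -0.09 (95% interval -0.92 to 0.75). The signalling subunits of the receptor complex did not move together. Cd3e had 8.51, 5.34 and 3.76 TPM against 4.49, 6.296 and 4.32 TPM, a difference of -0.14 (95% interval -1.10 to 0.81). Cd3g had 10.6, 12.6 and 9.04 TPM against 16.7, 18.9 and 12.3 TPM, a difference of 0.52 (95% interval -0.16 to 1.20), with 1 CTRL-ICB value inside the CTRL-IgG range.

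Trbc1, a constant segment of the T cell receptor beta chain, was the single gene of that list without overlap. Over all tested genes 3.51% had every CTRL-ICB tumour below every CTRL-IgG tumour. Trbc1 had 18.5, 24.95 and 22.1 TPM in CTRL-IgG and 11.6, 9.05 and 12.7 TPM in CTRL-ICB, a difference of -0.92 (95% interval -1.81 to -0.03). Its near-identical neighbour Trbc2 had 16.3, 18.5 and 21.5 TPM against 15.7, 22.4 and 13.6 TPM and a difference of -0.14 (95% interval -0.93 to 0.66). Reads of the pair cannot be split with certainty, so the value of Trbc1 alone is uncertain. Of 84 variable segments of the T cell receptor only 24 were tested, 14 positive and 9 negative, with a median of 0.07, and just 1 interval lay inside -1 to 1. Trbv13-1 had 0, 0.524 and 0.825 TPM against 1.33, 3.18 and 3.3 TPM, and Trbv29 was listed at 0 in CTRL-IgG and had 2.22, 1.78 and 0.926 TPM in CTRL-ICB.

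Among regulatory T cell genes 8 of 10 were tested, 3 positive and 5 negative, with a median of -0.12, or -0.44 without the libraries with skin transcripts. Foxp3, the factor that defines those cells, lay between 0.137 and 1.15 TPM and was not tested. Il10, an anti-inflammatory cytokine also made by myeloid cells, had 2.55, 2.69 and 0.626 TPM in CTRL-IgG and 4.13, 8.89 and 3.32 TPM in CTRL-ICB, a difference of 1.12 (95% interval 0.10 to 2.14) with no overlap between the groups. Tnfrsf4, encoding the costimulatory receptor OX40, had 4.05, 5.09 and 2.91 TPM against 2.11, 1.53 and 2.68 TPM, a difference of -0.68 (95% interval -1.35 to -0.02), with every CTRL-ICB tumour below every CTRL-IgG tumour. Il10 and Tnfrsf4 both had an adjusted p of 1 in limma. Over all tested genes 1.49% had every CTRL-ICB tumour above every CTRL-IgG tumour and 3.51% had every one below.

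Cytotoxic effector genes varied widely between tumours of both groups. All 16 were tested, 9 positive and 7 negative, with a median of 0.03, and only 3 intervals lay inside -1 to 1. The median was -0.08 without the libraries with skin transcripts. Gzmb, the granzyme that starts apoptosis in target cells, had 16.3, 28.5 and 7.199 TPM in CTRL-IgG and 9.43, 44.8 and 33.6 TPM in CTRL-ICB, a difference of 0.66 (95% interval -0.61 to 1.94). Both groups held a low and a high tumour, and without the libraries with skin transcripts the difference was -0.05. Gzma, another granzyme, had 8.78, 33.5 and 5.94 TPM against 10.4, 39.4 and 30.2 TPM and a difference of 0.87 (95% interval -0.56 to 2.31), which moved to 0.23 without those libraries. Prf1, the pore-forming perforin, had 8.45, 7.74 and 1.802 TPM against 1.81, 11.8 and 4.91 TPM, a difference of -0.04 (95% interval -1.43 to 1.35). Tnfsf10, the death ligand TRAIL, was the one member without overlap. Over all tested genes 1.49% had every CTRL-ICB tumour above every CTRL-IgG tumour. Tnfsf10 had 12.8, 11.3 and 7.28 TPM against 13.2, 19.4 and 17.2 TPM and a difference of 0.64 (95% interval -0.02 to 1.29).

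Interferon gamma itself, Ifng, had 1.73, 2.77 and 1.47 TPM against 1.58, 2.52 and 1.37 TPM and a difference of -0.08 (95% interval -0.70 to 0.54), with overlapping groups. Among T cell cytokines and signalling genes 9 of 15 were tested, 2 positive and 7 negative, with a median of -0.08, or -0.30 without the libraries with skin transcripts. NK cell genes gave 6 positive and 5 negative of 11 tested and a median of 0.12, which was -0.00 without the libraries with skin transcripts. Ncr1, an activating NK receptor, had 2.74, 2.31 and 0.888 TPM against 1.003, 0.821 and 1.31 TPM, a difference of -0.49 (95% interval -1.28 to 0.30), and Klrd1 had 9.04, 7.06 and 4.53 TPM against 8.18, 8.44 and 5.795 TPM, a difference of 0.13 (95% interval -0.69 to 0.95).

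B cell genes were nearly absent. Ms4a1 and Cd79a, which mark B cells, reached at most 0.119 TPM in any CTRL library and were not tested. Of 20 genes of B and plasma cells 9 were tested, 1 positive and 8 negative, with a median of -0.70. That median was -0.08 without CTRL-IgG replicate 2 and -0.02 with no filter on low values. Igkc, the constant segment of the kappa light chain, had 10.04, 70.5 and 7.08 TPM against 8.72, 0.606 and 10.5 TPM, with 1 high CTRL-IgG tumour, 1 low CTRL-ICB tumour and a difference of -1.72 (95% interval -4.06 to 0.62). Immunoglobulin variable segments were tested for 7 of 82, 1 positive and 6 negative, with a median of -0.23, and -0.80 without the libraries with skin transcripts.

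**Figure D4:**
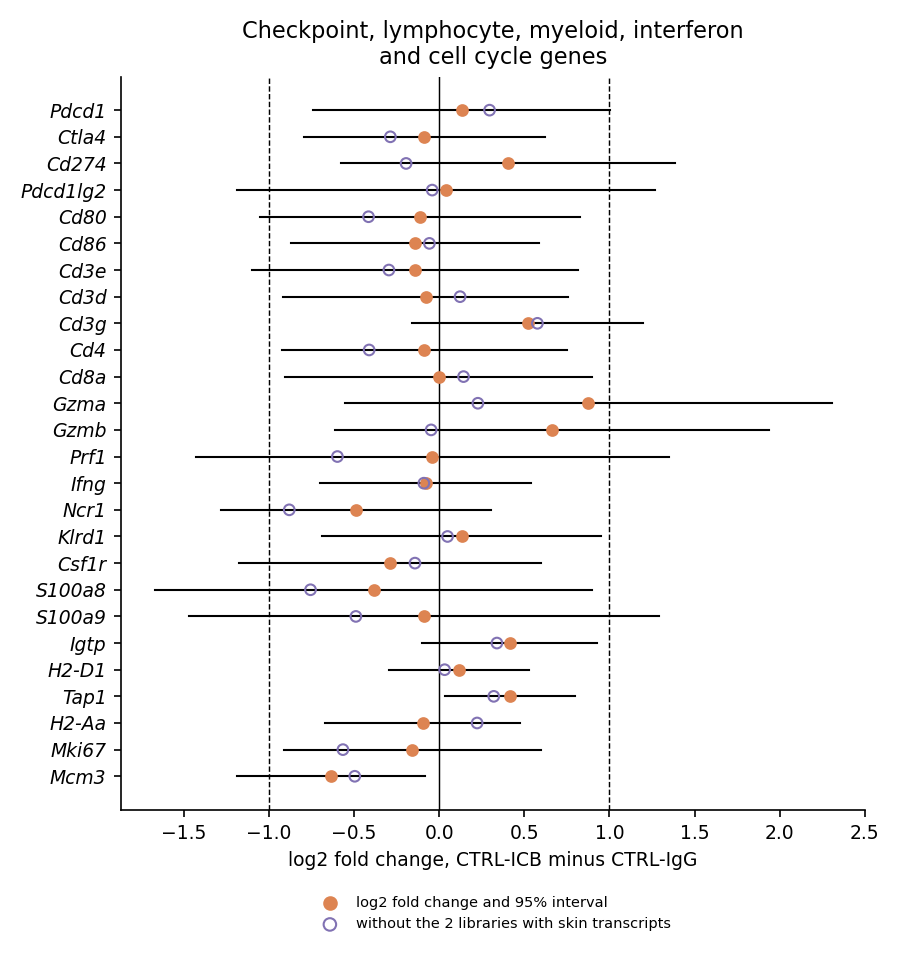
Log2 fold change (CTRL-ICB minus CTRL-IgG, horizontal axis) with its 95% interval for named checkpoint, lymphocyte, myeloid, interferon and cell cycle genes, and as open circles the value without the libraries with skin transcripts. Dashed lines mark -1 and 1, and the widest interval shown is that of Gzma, from -0.56 to 2.31.

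Myeloid transcripts were far more abundant than lymphoid ones, and the groups overlapped. Of 18 macrophage genes 6 were positive and 12 negative, with a median of -0.11 and just 2 intervals inside -1 to 1, and the median was 0.03 without the libraries with skin transcripts. Their summed level was 8581 to 9903 TPM in CTRL-IgG and 5174 to 14234 TPM in CTRL-ICB. The CTRL-ICB tumours thus held both the lowest and the highest sum. Spp1 and Apoe made up most of it in every CTRL library. Spp1 had 6178, 4643 and 1711 TPM against 5671.5, 5392 and 2273.5 TPM. Apoe had 1682, 1967 and 4311 TPM against 5219, 3400 and 1644 TPM. Which cells made these transcripts was not tested. C1qa, a complement subunit made by tumour macrophages, had 447, 1065 and 1001 TPM against 1191, 794 and 356 TPM, a difference of -0.17 (95% interval -1.22 to 0.88). Csf1r, the receptor that macrophages need to survive, had 102, 78.2 and 80.4 TPM against 97.7, 66.8 and 53.3 TPM, a difference of -0.29 (95% interval -1.17 to 0.60). Arg1, arginase of suppressive myeloid cells, had 125, 539 and 162 TPM against 461, 465 and 238 TPM and a difference of 0.74 (95% interval -0.95 to 2.43), an interval open in both directions.

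Neutrophil genes gave 4 positive and 6 negative of 10 tested, with a median of -0.05, which moved to -0.34 without the libraries with skin transcripts. S100a8, a subunit of calprotectin, had 169, 192 and 249 TPM against 58.6, 192 and 319 TPM, a difference of -0.39 (95% interval -1.67 to 0.90), and S100a9 had 230.3, 381 and 331 TPM against 101, 439 and 542 TPM, a difference of -0.09 (95% interval -1.47 to 1.29). CTRL-ICB replicate 1 was the lowest of all 6 tumours for both, and CTRL-ICB replicate 3 the highest. Skin keratinocytes can express this pair as well, and the part of the skin transcripts in these values was not tested. Dendritic cell genes had 2 positive and 8 negative of 10 tested and a median of -0.16. Genes of mast cells, basophils and eosinophils had 1 positive and 7 negative of 8 tested and a median of -0.43. Over the alternatives that median ran from -0.64 to 0.19. Cpa3, a mast cell protease, had 26.7, 14.6 and 15.8 TPM against 5.09, 19.9 and 11.6 TPM. CTRL-ICB replicate 1 was the lowest CTRL tumour for Cpa3, Mcpt4, Tpsb2, Cma1, Ms4a2 and Fcer1a, but not for Kit or Mcpt8.

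Chemokine and cytokine lists held no called gene either. Lymphocyte-attracting chemokines and receptors had 8 positive and 6 negative of 14 tested and a median of 0.08. Cxcl9, an attractant of T cells induced by interferon gamma, had 49.8, 98.6 and 42.7 TPM against 63.5, 109 and 64.97 TPM, a difference of 0.36 (95% interval -0.53 to 1.25). Ccl5 had 24.1, 48.99 and 56.7 TPM against 49.9, 60.03 and 26.6 TPM, a difference of 0.08 (95% interval -0.72 to 0.88). Myeloid-attracting chemokines and growth factors gave 6 positive and 8 negative of 14 and a median of -0.22, with no interval inside -1 to 1. Without the libraries with skin transcripts all 14 were negative, with a median of -0.55. Ccl7 was the one member without overlap, against 3.51% of all genes with every CTRL-ICB tumour below. It had 34.2, 109.7 and 37.5 TPM against 29.9, 31.8 and 31.1 TPM, a difference of -0.74 (95% interval -1.97 to 0.50). Cxcl1, a neutrophil attractant, had 42.5, 50.4 and 15.3 TPM against 16.3, 98.3 and 88.8 TPM, low in CTRL-IgG replicate 3 and CTRL-ICB replicate 1. Inflammatory cytokine genes had 4 positive and 11 negative of 15 and a median of -0.02, which became -0.44 without the libraries with skin transcripts.

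Interferon gamma-induced genes had the most uneven signs among the immune lists with more than 10 tested genes, at 18 positive and 2 negative of 20 and a median of 0.25, with 0 called and no member free of overlap. Gbp2, a guanylate-binding protein, had 284, 236 and 138 TPM in CTRL-IgG and 183, 382 and 318 TPM in CTRL-ICB, a difference of 0.42 (95% interval -0.28 to 1.12). Igtp, an immunity-related GTPase, had 169, 142 and 104 TPM against 173, 223 and 154 TPM and 0.41 (95% interval -0.10 to 0.93). For both genes CTRL-IgG replicate 3 was the lowest tumour. Without that library and CTRL-ICB replicate 3, the list had 12 positive and 8 negative members and a median of 0.05. Type I interferon-stimulated genes were evenly split, 14 positive and 15 negative of 29 tested, with a median of -0.00, but 10 and 19 without those libraries, with a median of -0.20. Isg15, a ubiquitin-like modifier, had 132, 143 and 213 TPM against 248, 158 and 186 TPM, a difference of 0.28 (95% interval -0.84 to 1.41), and Mx1, an antiviral GTPase, had 10.01, 8.45 and 8.49 TPM against 5.37, 5.77 and 6.89 TPM, a difference of -0.51 (95% interval -1.37 to 0.34). Mx1 was the 1 gene of the 29 without overlap, against 3.51% of all genes with every CTRL-ICB tumour below.

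MHC class I presentation genes gave narrow intervals, 17 of 18 inside -1 to 1, with 13 positive and 5 negative and a median of 0.12. H2-D1, a classical class I heavy chain, had 1364, 1344 and 958 TPM against 1329, 1442 and 1169 TPM, a difference of 0.12 (95% interval -0.29 to 0.53). B2m, the common light chain, had 6846, 6435 and 4909.6 TPM against 5496, 6624 and 5727 TPM, a difference of -0.02 (95% interval -0.42 to 0.38). In 4 of the 18 every CTRL-ICB tumour was above every CTRL-IgG tumour, against 1.49% over all genes. They were Tap1, a subunit of the peptide transporter, and the heavy chain genes H2-Q4, H2-Q7 and H2-T22. Tap1 had 169.8, 144 and 125 TPM against 189, 202 and 192 TPM, a difference of 0.42 (95% interval 0.04 to 0.80). H2-Q4 had 362, 434 and 380.0 TPM against 501, 471 and 463 TPM, a difference of 0.29 (95% interval -0.07 to 0.64). Heavy chain genes are a multigene family with shared sequence, so values of single members are uncertain.

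MHC class II presentation genes had 4 positive and 8 negative of 12 and a median of -0.07. H2-Aa, a class II alpha chain, had 1685, 1549 and 1614 TPM against 1870.0, 1901 and 969 TPM, a difference of -0.10 (95% interval -0.67 to 0.48), and Cd74, the invariant chain, had 3678, 3522 and 3985 TPM against 3759, 3772 and 2012 TPM, a difference of -0.29 (95% interval -0.84 to 0.27). For both the lowest tumour was CTRL-ICB replicate 3, and without the libraries with skin transcripts the median of the list was 0.21, with 10 of 12 positive. The list of cytosolic nucleic acid sensing genes covers DNA and RNA sensing and holds Trex1 itself. It had 9 positive and 9 negative of 18, a median of -0.01 and 16 intervals inside -1 to 1. Without the libraries with skin transcripts that split was 4 and 14, with a median of -0.18. Sting1, the adaptor of DNA sensing, had 53.8, 62.8 and 81.1 TPM against 69.9, 72.04 and 52.2 TPM, a difference of -0.02 (95% interval -0.48 to 0.44). Complement genes had 7 positive and 7 negative of 14 and a median of 0.03, or 0.24 without those libraries. Among them C1s1, a protease of the classical pathway, had 27.1, 38.6 and 13.1 TPM against 30.6, 129.6 and 46.1 TPM, a difference of 1.21 (95% interval 0.08 to 2.33) to which CTRL-ICB replicate 2 contributed the highest value.

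**Figure D5:**
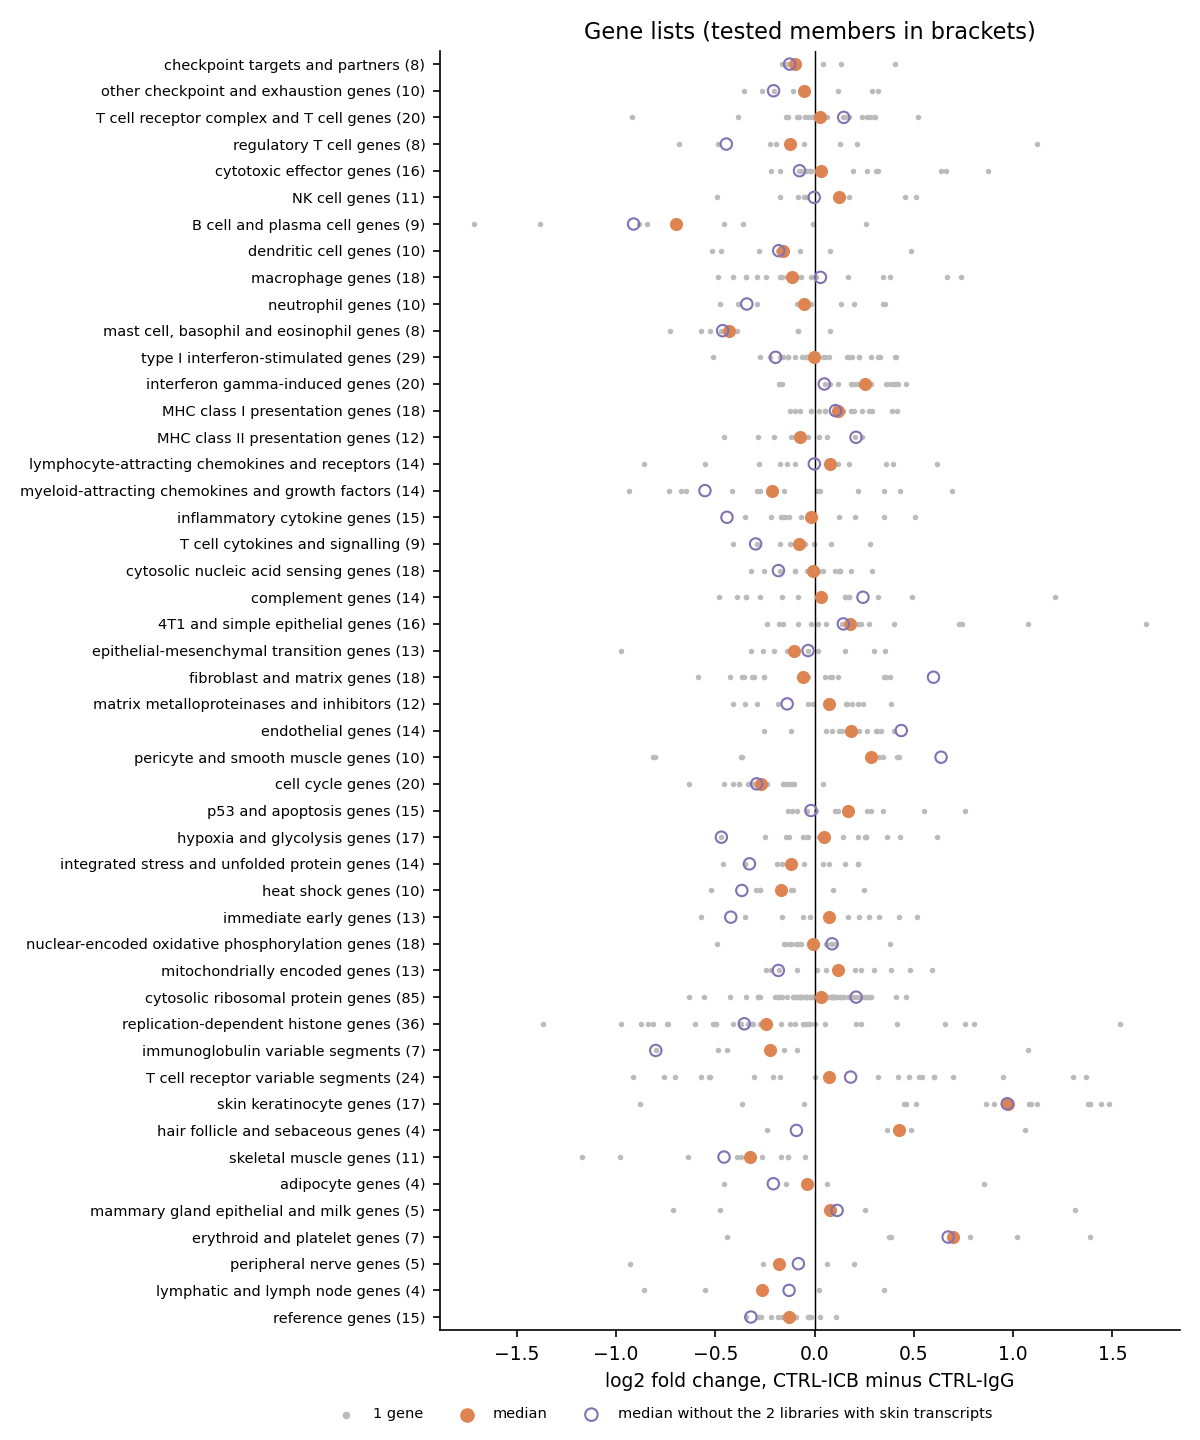
Log2 fold change (CTRL-ICB minus CTRL-IgG, horizontal axis) of every tested member of 48 gene lists, with the median of each list and, as open circles, the median without the libraries with skin transcripts. Medians of most lists lie near 0, that of the skin keratinocyte genes is 0.97, and the fibroblast and matrix genes move from -0.06 to 0.60 without those libraries.

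Carcinoma and proliferation genes came next. Of 16 genes of 4T1 and simple epithelia 11 were positive and 5 negative, with a median of 0.18, and -0.18 (95% interval -0.66 to 0.30) for Krt8. Cdh1, E-cadherin, had 198, 80.7 and 91.5 TPM against 108, 146 and 165 TPM, low in the CTRL-IgG replicate that also had little Epcam. Genes of the epithelial-mesenchymal transition had 4 positive and 9 negative of 13 and a median of -0.11. Cell cycle genes had 1 positive and 19 negative of 20 and a median of -0.27, against 52.6% negative over all tested genes. All 20 had an interval that ended below 1, and 16 lay inside -1 to 1. The median kept its sign under every alternative run, from -0.46 to -0.10. Of the 15 reference genes 13 were negative, and their median kept its sign too. CTRL-ICB replicate 1 was the highest of the CTRL tumours for Cdk1, Ccnb2, Birc5, Plk1 and Aurkb, but not for Mcm2 or Mki67. Mcm2, a subunit of the replicative helicase, was the one member without overlap, against 3.51% of all genes with every CTRL-ICB tumour below. It had 39.0, 42.2 and 39.4 TPM against 31.2, 31.8 and 27.1 TPM, a difference of -0.41 (95% interval -0.87 to 0.05). Mcm3, another subunit, had 68.7, 103 and 85. TPM against 79.3, 44.2 and 44.6 TPM, a difference of -0.64 (95% interval -1.19 to -0.08). Mki67, the proliferation marker Ki-67, had 32.3, 26.9 and 16.8 TPM against 22.3, 17.2 and 27.2 TPM, a difference of -0.16 (95% interval -0.91 to 0.60), and Top2a had 170.2, 188 and 129 TPM against 163, 104 and 126 TPM, a difference of -0.32 (95% interval -0.85 to 0.22). None of the 20 passed the test.

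Stress programmes held no called gene. Genes of p53 and apoptosis had 11 positive and 4 negative of 15 and a median of 0.17, which became 6 and 9 and -0.02 without the libraries with skin transcripts. Hypoxia and glycolysis genes had 10 positive and 7 negative of 17 and a median of 0.05, and all 17 were negative without those libraries, with a median of -0.47. Car9, a carbonic anhydrase induced by low oxygen, had 160.4, 246 and 31.96 TPM against 113, 136 and 143 TPM, lowest in CTRL-IgG replicate 3. Integrated stress and unfolded protein genes had a median of -0.12, heat shock genes -0.17 and immediate early genes 0.07, which moved to -0.33, -0.37 and -0.42 without those libraries.

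Stromal genes varied between single tumours of both treatments. Of 18 fibroblast and matrix genes 7 were positive and 11 negative, with a median of -0.06 and 3 intervals inside -1 to 1. Col1a1, the main fibrillar collagen, had 552, 185 and 878 TPM against 985, 249 and 214 TPM, and Col3a1 had 373, 157 and 799 TPM against 1062, 131 and 97.8 TPM. The highest values were in CTRL-IgG replicate 3 and CTRL-ICB replicate 1, 1 of each treatment. Without the libraries with skin transcripts the median was 0.60, with 17 of 18 positive. Endothelial genes had 12 positive and 2 negative of 14 and a median of 0.19, and Pecam1 had 47.7, 40.9 and 26.4 TPM against 53.9, 48.9 and 27.8 TPM. Genes of pericytes and smooth muscle had 6 positive and 4 negative of 10 and a median of 0.28. Without those libraries the medians were 0.44 and 0.64. Matrix metalloproteinases and their inhibitors were evenly split at 6 and 6 of 12, with a median of 0.07, or -0.14 without those libraries.

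Housekeeping systems were among the most closely bounded lists. All 18 tested nuclear-encoded oxidative phosphorylation genes had an interval inside -1 to 1, with a median of -0.01, as did 79 of 85 cytosolic ribosomal protein genes, with a median of 0.03, and 13 of 15 reference genes, with a median of -0.13. The 13 mitochondrially encoded genes had a median of 0.12 with 9 positive, which became -0.18 with 3 positive without the libraries with skin transcripts. The same step moved the ribosomal protein genes from 50 positive and 35 negative to 71 and 14, with a median of 0.21, and the reference genes to a median of -0.32. Among genes of at least 50 TPM the 10 with the narrowest intervals included Sumo2, a ubiquitin-like modifier, with 365, 365 and 355 TPM against 403, 357 and 359 TPM and a difference of 0.04 (95% interval -0.27 to 0.36). Rpl4, a protein of the large ribosomal subunit, had 1931, 1874 and 1812 TPM against 1780.4, 1801 and 1859 TPM and a difference of -0.05 (95% interval -0.37 to 0.28). Psmd2, a proteasome subunit, had 157, 148 and 146 TPM against 131, 137 and 144 TPM and a difference of -0.13 (95% interval -0.44 to 0.19), with groups that did not overlap although the difference was small. Over all tested genes 3.51% had every CTRL-ICB tumour below. Reference genes were not free of spread themselves, since Actb was 2448, 2751 and 2269.8 TPM against 2447, 1867 and 2114 TPM and Gapdh 1613, 2528 and 1394 TPM against 1639, 1567 and 1699.7 TPM.

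Lists of other tissues follow, and how far those tissues contributed to each library was not tested. Skin keratinocyte genes had 14 positive and 3 negative of 17, a median of 0.97 and no interval inside -1 to 1. CTRL-ICB replicate 3 held 13259 TPM of the list against 6726 TPM in CTRL-IgG replicate 3. Without both of those libraries the median was 0.97 as well, with 16 positive and 1 negative. Over the alternatives it ran from -1.10 to 2.20. Krt1 had 0, 6.86 and 713 TPM against 11.5, 0 and 399.8 TPM. Genes of hair follicle and sebaceous gland (4 tested) had a median of 0.42 (-0.09 without the libraries with skin transcripts), those of skeletal muscle (11 tested, all negative) -0.32, those of adipocytes (4 tested) -0.04 and those of mammary epithelium and milk (5 tested) 0.08. Peripheral nerve genes (5 tested) had a median of -0.18 and lymphatic and lymph node genes (4 tested) -0.27. Erythroid and platelet genes had 6 positive and 1 negative of 7 and a median of 0.70. Hbb-bs, an adult beta-globin, had 62.96, 49.2 and 33.8 TPM in CTRL-IgG and 139, 68.1 and 94.7 TPM in CTRL-ICB, a difference of 1.02 (95% interval -0.01 to 2.05), and its paralog Hbb-bt had 3.39, 2.45 and 0.538 TPM against 9.35, 4.69 and 6.11 TPM, a difference of 1.39 (95% interval 0.40 to 2.38). Neither overlapped between the groups, against 1.49% of all genes with every CTRL-ICB tumour above, and the pair shares sequence. Globin transcripts are known from red blood cells, whose part in other values was not tested.

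Finally, the effect of the antibodies in CTRL tumours was set beside that in tumours labelled TREX1 KO, which share no library with it. Among KO tumours 0 of 13886 genes (0%) were called in limma, with 443 (3.19%) at an unadjusted p under 0.05 and a smallest adjusted p of 0.0784, and 42.3% had an interval inside -1 to 1. The difference between the effects, tested as an interaction, gave 0 called genes (0%), 196 (1.41%) at an unadjusted p under 0.05 and a smallest adjusted p of 0.301, for the muscle gene Tnnc2. The test had little reach, with a median half-width of 1.06 and an interval inside -1 to 1 for only 21.4% of genes. H1f2 had a log2 fold change of 0.76 in CTRL and 0.73 in KO tumours, and H2ac18 1.54 and 0.96. Dok2 had -1.20 and 0.04, Add2 -1.55 and 1.41, and H3c13 -0.98 and 0.89. The interaction estimates of the last 3 were 1.24, 2.96 and 1.86, each with an adjusted p of 0.999 in limma. Without the averaged KO-IgG pair, which leaves 1 KO-IgG tumour assumed to vary like the other groups, 7 genes passed (Prss22, Plet1, Krt19, Fxyd3, Cd24a, Crabp1 and Ace). That tumour, KO-IgG replicate 1, had 0.661 TPM of Epcam, whereas the remaining KO tumours had 1087 to 1239 TPM, and the part of this in the 7 calls was not tested. With all 12 libraries counted singly 1 gene passed, Tnnc2, and with no filter on low values 9 did. In the fit of 10 samples no gene was shown to respond differently to the antibodies in the 2 genotypes.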

How the data were processed

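RNA was extracted from 12 mammary tumours of 4T1 cells with a total RNA kit, 3 tumours per group, and polyadenylated RNA was sequenced commercially, per the labels' protocols. The authors deposited 1 table of TPM values, 1 column per library, for which kallisto and the build GRCm38 are named, per the submitters' processing notes. The sources used here give no kallisto version, transcript set or use of strand. TPM are shares of a library and carry no depth, so precision rests on the spread between libraries.

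Libraries were grouped by their labels and titles. Replicates 2 and 3 of KO-IgG were near identical, as were replicates 1 and 2 of KO-ICB, with a robust SD of the log2 ratio of 0.0612 and 0.0377 over genes above 300 TPM. Every other pair of replicates gave 0.216 to 0.598. Each was averaged and counted once (bound 0.1), which left 10 samples, and p-values measure the spread between these. Genes that reached 1 TPM in 3 or more of 12 libraries were fitted as log2(TPM + 1) with 4 group means in limma 3.58.1 (R 4.3.3), with trend and robust shrinkage. Benjamini-Hochberg adjustment ran over all 13886 genes with a threshold of 0.05, and 95% intervals come from the same fit. The fit was tested on simulated data. No set tests were run.

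The genes, the 48 lists and the alternatives were chosen with earlier results of these data known. Named genes are those of smallest p (10 higher, 10 lower), the antibody targets and partners, up to 3 list members of smallest p and up to 2 of highest mean level per list, the 10 of at least 50 TPM with the narrowest intervals, and Trex1. Not every gene that this rule names is reported here. Further defining markers and familiar list members (Cd3e, Cd4, Cd8a, Prf1, Ifng, Csf1r, Cxcl9, Isg15, Mki67 and the like) and the genes of the other observations were named after their values had been seen. Coordinates come from a RefSeq table of GRCm38.p6, which matched 21974 symbols (92.8%), or from GENCODE M21. No sequences are shown, since no gene passed. Alternatives were the 6 CTRL libraries alone, all 12 libraries, no libraries with skin transcripts, the replicate number as a block, median centring, quantile normalization, plain limma, a pseudocount of 0.1, no filter or 5 TPM, array weights, and each sample left out in turn.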

Additional observations from a re-analysis of the deposited data

How the results depend on the processing

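The count of genes called between CTRL-ICB and CTRL-IgG was 0 under all 22 alternatives, with a smallest adjusted p in limma of 0.243 without the libraries with skin transcripts, 0.260 with array weights, 0.331 without CTRL-IgG replicate 3 and 0.401 with no filter. At an unadjusted p under 0.05, 125 to 368 genes were counted when 1 sample was left out and 1695 with array weights, against 176. Genes with an interval inside -1 to 1 numbered 5645 without the libraries with skin transcripts and 18069 with no filter, against 9427, and 7342 to 10145 when 1 sample was left out. Bounds of a 2-fold difference in TPM itself, chosen after seeing the data, gave 7466. A pseudocount of 0.1 gave 7615, and the other alternatives moved the count by less than 1.5 times. The interaction called 1 gene over all 12 libraries, 9 with no filter and 0 to 7 when 1 sample was left out, where the 7 came without the averaged KO-IgG pair. The share of positive differences over all genes was 50.9% with median centring and 36.5% to 57.7% when 1 sample was left out, against 47.3%. All 20 genes of smallest p kept their sign wherever they were tested. Their groups did not overlap, so leaving out samples could not reverse it, and the constant sign is no separate support. The signs of 12 of the 48 list medians were the same under every alternative. Among immune lists these were B and plasma cell, dendritic cell, interferon gamma-induced and MHC class I genes. The others were epithelial-mesenchymal transition, endothelial, cell cycle, heat shock, histone, skeletal muscle, erythroid and platelet, and reference genes. The median of the interferon gamma-induced genes fell to 0.03 at its lowest. The cause of these shifts was not tested. Depth is unknown, so low genes are limited by the log scale and the spread alone.

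Same-numbered tumours did not deviate together throughout, with correlations of -0.22, 0.21 and 0.20 for replicates 1, 2 and 3, and CTRL-ICB replicate 2 correlated best with CTRL-IgG replicate 1 (0.32), so the numbers were not read as pairs. With the replicate block 0 genes were called over all 12 libraries (225 unadjusted, 9739 intervals inside -1 to 1) and 0 over the 6 CTRL libraries (165 unadjusted, 7325 intervals). The interaction called 0 genes with the block.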

Other observations

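Outside the lists, a few genes were picked after their values had been seen from those whose estimate exceeded 2-fold without overlap between the groups, at a mean above 5 TPM. Each had an adjusted p of 1 in limma. Cd1d1, which presents lipids to NKT cells, had 6.02, 5.98 and 5.4 TPM in CTRL-IgG and 20.8, 18.5 and 7.13 TPM in CTRL-ICB, a log2 fold change of 1.16 (95% interval 0.30 to 2.01). Cd200, an inhibitory ligand of myeloid cells, had 13.5, 5.57 and 11.7 TPM against 26.98, 17.6 and 22.4 TPM, a difference of 1.11 (95% interval 0.20 to 2.01). Itga2, the collagen-binding integrin alpha2, had 15.3, 13.3 and 6.47 TPM against 17.2, 28.4 and 29.9 TPM, a difference of 1.08 (95% interval -0.01 to 2.17). Ibsp, a sialoprotein of mineralized matrix, had 3.76, 5.78 and 5.59 TPM against 31.9, 12.1 and 10.9 TPM, a difference of 1.53 (95% interval -0.87 to 3.93), and in CTRL-ICB replicate 1 it was more abundant than in any other CTRL library. On the lower side, Klf2, a transcription factor of resting T cells and endothelium, had 41.2, 22.3 and 31.4 TPM against 14.5, 14.8 and 13.9 TPM, a difference of -1.04 (95% interval -1.79 to -0.30), with 3 nearly equal CTRL-ICB values.

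CTRL-IgG replicate 3 and CTRL-ICB replicate 1, the closest pair of libraries, were alike in some single genes, picked after their values had been seen. Both had more Col1a1 (878 and 985 TPM) than the other 4 CTRL libraries (185 to 552 TPM) and less Gzmb (7.20 and 9.43 TPM against 16.3 to 44.8 TPM). Other members of the same lists went otherwise. The granzyme gene Gzme was highest in CTRL-IgG replicate 3, at 36.2 TPM, and Gzma was higher in CTRL-ICB replicate 1 (10.4 TPM) than in CTRL-IgG replicate 1 (8.78 TPM).

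Some of the largest estimates belonged to transcripts listed at 0 in part of the libraries. Gm9843 had 300.1, 12.3 and 0 TPM in CTRL-IgG and was listed at 0 in all CTRL-ICB libraries. Rpl15-ps3 was listed at 0 in CTRL-IgG and had 0, 11.8 and 69.2 TPM in CTRL-ICB. Trbj1-5, a joining segment of the T cell receptor beta chain, was listed at 0 in CTRL-IgG and had 3.03, 10.9 and 3.95 TPM in CTRL-ICB.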
